A study of Mus musculus with 20 samples.

Results

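Cks2, Kif22, Mad2l1, Ube2c and Anln are 5 genes whose proteins act in mitosis, and their transcripts were followed through heat shock in mouse fibroblasts with and without heat shock factor 1 (HSF1). They were taken by name, through array probes that list 1 gene in the platform's probe-gene table, and make up 5 of the 10625 genes measured. They were chosen by their measured values on these arrays, with results of the series known, so all their values and differences are given as a description with no test.

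Fibroblasts with both copies of the gene deleted, HSF1 -/- (KO), were compared with HSF1 +/+ fibroblasts (WT). HSF1 turns on the genes of heat shock proteins, chaperones that keep other proteins folded. Each of the 20 two-colour arrays set one sample (Cy5) against the same pool of fibroblast mRNA (Cy3), which mixed cells heated for 1 h with unheated cells. The arrays formed 6 groups: KO late and WT late (3, 4, 6 and 8 h of the heat shock series, n = 4 each), KO early and WT early (0.5, 1 and 2 h, n = 3 each), and KO 0 h and WT 0 h (n = 3 each). Each heated time was measured on 1 array per genotype, so the spread within a heated group includes change over time. The labels describe the samples as a cell line. Separate cultures are not named for the arrays at 0 h, so p-values reflect only how far these arrays spread, which may be technical. Genotype cannot be told apart from any other difference between the KO and WT cells. The temperature, and whether the times count continuous heat or recovery, are not given in the sources used here.

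All values of a gene are log2 ratios of the sample to the pool after the median of each array was set to 0, and each probe was set to a mean of 0 across the arrays. They compare samples within a gene and say nothing about which gene is more abundant, and the fibroblast identity of the cells could not be checked from them as a level. The base of the logarithm is not stated; natural logarithms were not excluded, and the folds would then be larger than printed. Hspa1a, the heat-inducible HSP70 chaperone, rose by 5.83 ± 0.75 (log2, SE; adjusted p = 0.00184, limma) in late WT cells, and the KO response minus the WT response was -5.84. The heat and genotype labels were checked on that gene, since 0 probes listed Hsf1 alone. Arrays held 39037 to 42220 values each. Of 8 macrophage, 7 epithelial and 5 endothelial markers, 2 macrophage markers were called lower in KO than in WT cells at 0 h. Among all genes 3.60% were called lower. Cd68 was lower by -0.83 and Fcgr1 by -1.13, calls that held in 3 and 5 of 6 fits with one array left out. The macrophage markers did not move together: 5 of the 8 lay below 0, whereas Csf1r, Cd14 and Fcer1g stood at 0.62, 0.41 and 0.30, not called. Fcgr1 was also lower in early and late WT cells, by -1.59 and -1.41. Lyz2 was higher by 0.66 in late KO cells, a call that held in 1 of 7 fits with one array left out. The part of other cell types in the results below was not tested. In bulk RNA, fewer cells in mitosis and less RNA per cell cannot be told apart.

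Mitosis is driven by cyclin-dependent kinase 1 bound to a cyclin and a small Cks subunit. Chromosomes are moved by motor proteins on spindle microtubules, and the spindle checkpoint holds the anaphase-promoting complex (APC/C), a ubiquitin ligase, inactive until every chromosome is attached. The APC/C then marks cyclin B and securin for destruction, the sister chromatids separate, and a contractile ring divides the cell. Genes of this programme are transcribed mainly in G2 and mitosis, and many carry CCAAT boxes and a CHR element (cell cycle genes homology region) in their promoters, through which they are kept low in resting cells. Cks2 and its relative Cks1b are CDK subunits. Kif22 (Kid) is a chromosome-binding kinesin. Mad2l1 (MAD2) is the checkpoint protein that binds the APC/C activator Cdc20. Ube2c (UbcH10) is the ubiquitin-conjugating enzyme that starts chains for the APC/C. Anln (anillin) is a scaffold of the contractile ring.

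The promoters are shown because these genes share a cell cycle programme that the choice of the genes did not read from sequence. All 5 genes matched the RefSeq promoter table (mouse build GRCm38.p6), and the 250 bases before each transcription start are printed 5′ to 3′ on the gene's strand. Capitals mark matches to the CCAAT box (CCAAT), to the CHR (TTTGAA) and to a pair of heat shock factor half-sites in either order (GAANNTTC or TTCNNGAA), each on either strand, so that ATTGG and TTCAAA are matches read from the opposite strand.
Cks2 promoter, chr13:51644982-51645231, plus strand:
Cks2: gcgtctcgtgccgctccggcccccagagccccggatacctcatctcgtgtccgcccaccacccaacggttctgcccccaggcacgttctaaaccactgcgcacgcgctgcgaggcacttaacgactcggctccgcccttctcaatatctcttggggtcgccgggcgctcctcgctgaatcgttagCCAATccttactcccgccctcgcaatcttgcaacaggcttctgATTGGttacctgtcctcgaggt
Kif22 promoter, chr7:127042421-127042670, minus strand:
Kif22: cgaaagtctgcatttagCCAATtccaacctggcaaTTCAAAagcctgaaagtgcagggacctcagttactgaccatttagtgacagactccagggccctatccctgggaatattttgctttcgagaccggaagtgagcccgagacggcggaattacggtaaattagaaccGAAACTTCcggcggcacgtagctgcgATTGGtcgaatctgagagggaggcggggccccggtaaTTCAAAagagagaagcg
Mad2l1 promoter, chr6:66534971-66535220, plus strand:
Mad2l1: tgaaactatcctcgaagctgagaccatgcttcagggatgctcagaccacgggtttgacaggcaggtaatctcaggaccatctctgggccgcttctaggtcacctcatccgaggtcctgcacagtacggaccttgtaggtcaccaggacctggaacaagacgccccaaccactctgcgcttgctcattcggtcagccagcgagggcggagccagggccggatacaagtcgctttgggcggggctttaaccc
Ube2c promoter, chr2:164769679-164769928, plus strand:
Ube2c: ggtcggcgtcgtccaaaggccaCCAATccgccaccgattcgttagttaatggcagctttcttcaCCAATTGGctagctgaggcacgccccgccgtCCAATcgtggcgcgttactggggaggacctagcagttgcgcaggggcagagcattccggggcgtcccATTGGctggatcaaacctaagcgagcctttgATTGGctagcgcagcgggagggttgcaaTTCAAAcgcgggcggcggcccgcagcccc
Anln promoter, chr9:22389207-22389456, minus strand:
Anln: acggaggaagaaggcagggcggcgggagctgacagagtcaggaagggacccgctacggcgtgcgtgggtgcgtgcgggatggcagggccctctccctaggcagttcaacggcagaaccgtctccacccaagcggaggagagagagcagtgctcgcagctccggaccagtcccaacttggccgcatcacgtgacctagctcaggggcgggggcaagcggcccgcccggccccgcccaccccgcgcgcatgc
In the 300 bases searched, which reach 50 bases past the start, Ube2c held 6 CCAAT matches, 2 of which overlap as CCAATTGG, and 1 CHR match at position -29. Kif22 held 2 CHR matches at -215 and -17, 2 CCAAT matches and 1 GAANNTTC match at -80. Cks2 held 4 CCAAT matches, of which 2 lie past the start, and no CHR match. Anln held 2 CHR matches, both past the start, and Mad2l1 held none of these letters. Across the 32851 promoters of the table, 17.9% held TTTGAA, 37.4% CCAAT, 7.86% GAANNTTC and 8.52% TTCNNGAA. Among 139 promoters of genes in the mitosis lists used below, 40.3% held TTTGAA, 53.2% CCAAT, 5.04% GAANNTTC and 4.32% TTCNNGAA. A match describes the letters alone. The promoters of Ube2c and Kif22 were the most alike, in holding both CCAAT and CHR matches. Whether any match bears on the values described next was not tested.

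After 3 to 8 h, Cks2, Mad2l1, Kif22 and Anln stood 1.68- to 2.40-fold lower than at 0 h in KO cells and 1.81- to 2.49-fold lower in WT cells. Ube2c did not share this: it stood 1.45-fold higher late than at 0 h in KO cells and near its 0 h value in WT cells.

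**Figure D1:**
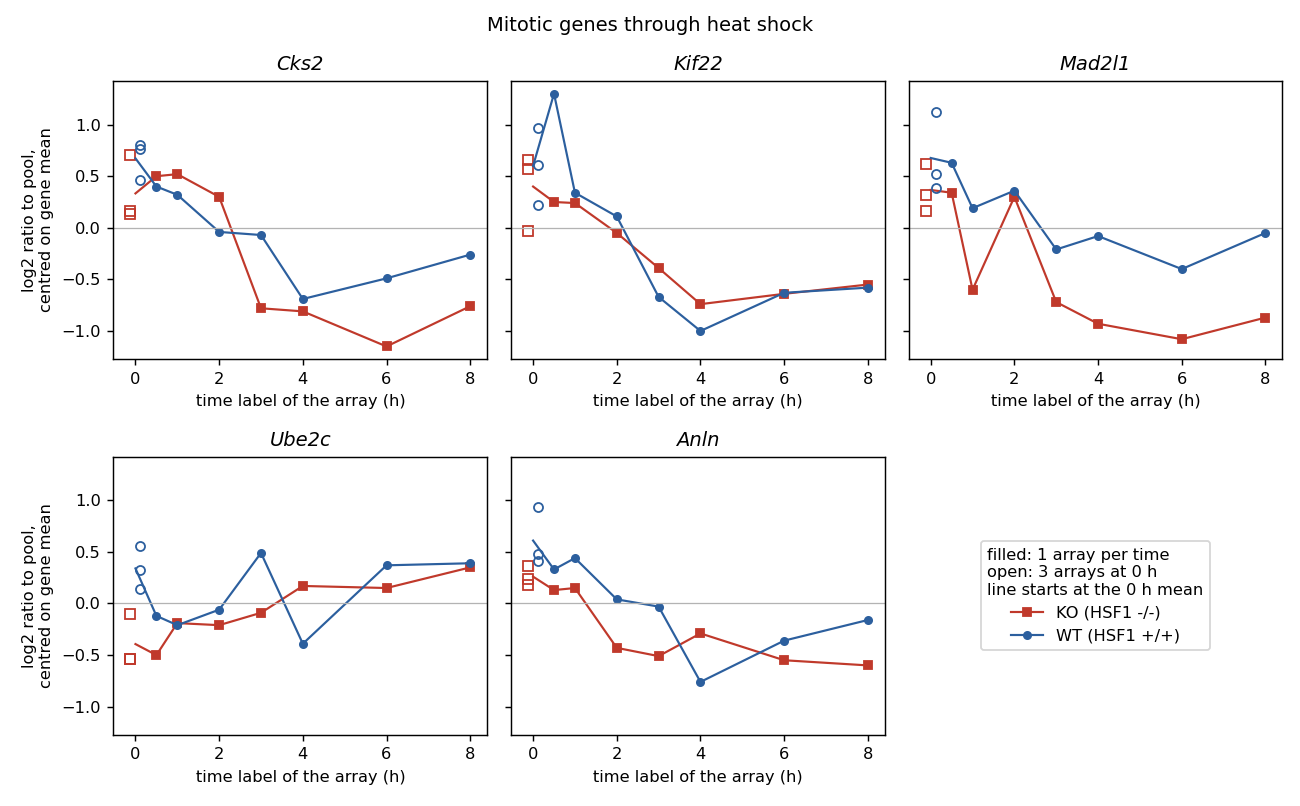
Values of the 5 genes on each of the 20 arrays (centred log2 ratio to the pool, vertical axis) against the time label in hours (horizontal axis), for KO and WT arrays; lines join the mean at 0 h and the single arrays of later times. Cks2, Kif22, Mad2l1 and Anln lie lower from 3 h on in both genotypes, and Ube2c does not.

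Cks2 in KO cells stood at 0.71, 0.13 and 0.16 on the 3 arrays at 0 h, at 0.50, 0.52 and 0.30 at 0.5, 1 and 2 h, and at -0.78, -0.81, -1.15 and -0.76 at 3, 4, 6 and 8 h. In WT cells it stood at 0.80, 0.76 and 0.46 at 0 h, at 0.40, 0.32 and -0.04 at 0.5, 1 and 2 h, and at -0.07, -0.69, -0.49 and -0.26 at 3, 4, 6 and 8 h. Every late array lay below every 0 h array in both genotypes, which 16.4% of all genes did in KO cells and 10.7% in WT cells. The heated KO arrays up to 2 h stayed within the 0 h range and dropped below it at 3 h, whereas in WT cells the arrays up to 2 h already lay below all 3 at 0 h. The late difference was -1.21 ± 0.19 in KO cells and -1.05 ± 0.19 in WT cells (log2, SE), or 2.31-fold and 2.07-fold lower. Ordered by group mean, Cks2 was highest in WT 0 h (0.67 ± 0.19, SD), followed by KO early, KO 0 h, WT early, WT late (-0.38 ± 0.27) and KO late (-0.88 ± 0.19). The neighbours KO early and KO 0 h, and KO 0 h and WT early, were closer than the larger of their SDs. Cks2 rested on 1 probe.

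Cks1b, the close relative that also binds CDK1, was not among the 5 genes, but it too was chosen with results of the series known. The p-values given for Cks1b come from the fit over all genes and are not free of that choice. In KO cells its values were 0.22, -0.06 and -0.12 at 0 h, -0.02, -0.04 and -0.01 at 0.5, 1 and 2 h, and -0.71, -0.85, -1.11 and -1.14 at 3, 4, 6 and 8 h. WT values were 1.10, 0.88 and 0.66 at 0 h, 0.35, 0.20 and 0.13 at 0.5, 1 and 2 h, and 0.39, -0.08, 0.07 and 0.13 at 3, 4, 6 and 8 h. All late arrays lay below all 0 h arrays in both genotypes, and all KO arrays at 0 h lay below all WT arrays at 0 h. It fell by 0.97 ± 0.16 in late KO cells (adjusted p = 0.001, limma) and by 0.75 ± 0.16 in late WT cells (adjusted p = 0.00946, limma). Before heat it was lower in KO than in WT cells, by -0.87 ± 0.17 (adjusted p = 0.00386, limma). Its 2 probes ran together over the 20 arrays (r = 0.97). Whether Cks1b and Cks2 bind each other's probes was not tested.

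Kif22 had KO values of 0.57, -0.03 and 0.66 at 0 h, 0.25, 0.24 and -0.05 at 0.5, 1 and 2 h, and -0.39, -0.74, -0.64 and -0.55 at 3, 4, 6 and 8 h. Its WT values were 0.22, 0.61 and 0.97 at 0 h, 1.30, 0.34 and 0.11 at 0.5, 1 and 2 h, and -0.67, -1.0, -0.63 and -0.58 at 3, 4, 6 and 8 h. Late arrays lay below all 0 h arrays in both genotypes, and the highest of the 20 values was the WT array at 0.5 h. The late difference was -0.98 ± 0.25 in KO cells and -1.32 ± 0.25 in WT cells, or 1.97-fold and 2.49-fold lower. By group mean the order was WT 0 h (0.60 ± 0.37), WT early, KO 0 h, KO early (0.15 ± 0.17), KO late (-0.58 ± 0.15) and WT late (-0.72 ± 0.19). Of these neighbours, KO early and KO late alone stood further apart than the larger of their SDs. RefSeq lists a Kif22 pseudogene, whose RNA the probes could also bind.

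Mad2l1, the checkpoint protein, stood in KO cells at 0.62, 0.32 and 0.16 at 0 h, at 0.34, -0.60 and 0.30 at 0.5, 1 and 2 h, and at -0.72, -0.93, -1.08 and -0.87 at 3, 4, 6 and 8 h. WT arrays gave 0.52, 1.12 and 0.39 at 0 h, 0.63, 0.19 and 0.36 at 0.5, 1 and 2 h, and -0.21, -0.08, -0.40 and -0.05 at 3, 4, 6 and 8 h. The groups late and 0 h did not overlap in either genotype. Late KO arrays ran from -1.08 to -0.72 and late WT arrays from -0.40 to -0.05. The share of all genes with late groups this far apart was not counted. One KO array, at 1 h, was already near the late KO range while its neighbours at 0.5 and 2 h were not. The late difference was -1.26 ± 0.23 in KO cells and -0.86 ± 0.23 in WT cells, or 2.40-fold and 1.81-fold lower. In the order of group means, from WT 0 h (0.67 ± 0.39) through WT early, KO 0 h, KO early and WT late (-0.18 ± 0.16) to KO late (-0.90 ± 0.15), WT late and KO late alone differed by more than the larger SD.

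Ube2c, the conjugating enzyme of the APC/C, had KO values of -0.10, -0.54 and -0.54 at 0 h, -0.50, -0.19 and -0.21 at 0.5, 1 and 2 h, and -0.09, 0.17, 0.15 and 0.35 at 3, 4, 6 and 8 h. In WT cells the values were 0.32, 0.14 and 0.56 at 0 h, -0.12, -0.21 and -0.06 at 0.5, 1 and 2 h, and 0.49, -0.39, 0.37 and 0.39 at 3, 4, 6 and 8 h. Late KO arrays lay above all KO arrays at 0 h, with the array at 3 h barely so, and 10.3% of all genes did likewise. WT arrays lay below the 0 h range at 0.5, 1 and 2 h and back inside it at 3, 6 and 8 h, with the 4 h array lowest of all. The late difference was 0.54 ± 0.20 in KO cells and -0.12 ± 0.20 in WT cells, and without the WT array at 4 h the WT value was 0.08. Before heat, Ube2c was 0.73 ± 0.21 lower in KO cells on the log2 scale, the largest of the 5 genotype differences at 0 h. By group mean it was highest in WT 0 h (0.34 ± 0.21), then WT late (0.22 ± 0.41), KO late (0.14 ± 0.18), WT early, KO early and KO 0 h (-0.39 ± 0.25), with KO late and WT early the one pair of neighbours further apart than the larger SD.

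Anln, the ring scaffold, stood in KO cells at 0.36, 0.18 and 0.24 at 0 h, at 0.13, 0.15 and -0.43 at 0.5, 1 and 2 h, and at -0.51, -0.29, -0.55 and -0.60 at 3, 4, 6 and 8 h. In WT cells it stood at 0.48, 0.94 and 0.41 at 0 h, at 0.33, 0.44 and 0.04 at 0.5, 1 and 2 h, and at -0.03, -0.76, -0.36 and -0.16 at 3, 4, 6 and 8 h. Late arrays were below all 0 h arrays in both genotypes, and the arrays at 2 h were the lowest of the early ones in both. The late difference was -0.75 ± 0.20 in KO cells and -0.94 ± 0.20 in WT cells, or 1.68-fold and 1.91-fold lower. In the order of means from WT 0 h (0.61 ± 0.29) through WT early, KO 0 h, KO early and WT late (-0.33 ± 0.32) to KO late (-0.49 ± 0.14), WT 0 h and WT early alone were further apart than the larger SD.

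Probes of the same gene did not always give the same size. The 2 Kif22 probes ran together over the 20 arrays (r = 0.91), with late differences of -0.93 and -1.03 in KO cells and -0.94 and -1.69 in WT cells. For Mad2l1 (r = 0.47) they were -1.04 and -1.48 in KO cells and -0.69 and -1.03 in WT cells. Anln probes (r = 0.55) gave -0.91 and -0.59 in KO cells and -0.72 and -1.15 in WT cells, so they disagreed on which genotype moved further. At 0 h they also disagreed, with KO minus WT differences of 0.06 and -0.75. The Ube2c probes (r = 0.50) gave 0.13 and 0.94 in late KO cells and -0.43 and 0.18 in late WT cells, so the WT sign depended on the probe. All 7 probes of the other 4 genes were lower late in both genotypes.

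**Figure D2:**
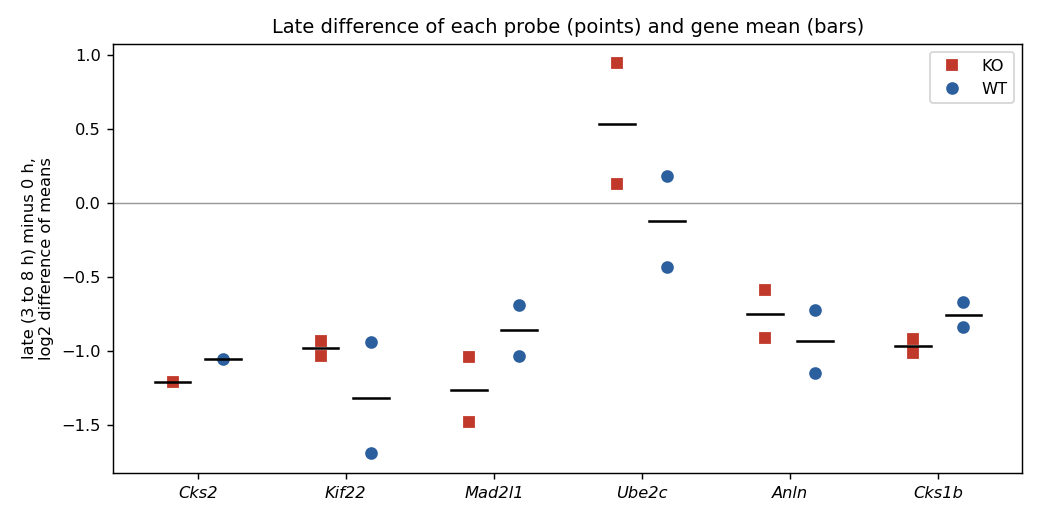
Late minus 0 h difference (log2, vertical axis) of every probe of the 5 genes and of Cks1b (points) and of the gene mean (bars), for KO and WT. All probes of Cks2, Kif22, Mad2l1 and Anln lie below 0 in both genotypes, and the 2 Ube2c probes differ in sign in WT cells.

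In the first 2 h Cks2, Kif22, Mad2l1 and Anln stood closer to 0 h than they did late, in both genotypes. In KO cells the early differences were 0.11 for Cks2, -0.25 for Kif22, -0.35 for Mad2l1, 0.10 for Ube2c and -0.31 for Anln. In WT cells they were -0.44 for Cks2, -0.01 for Kif22, -0.28 for Mad2l1, -0.47 for Ube2c and -0.34 for Anln. The 3 early arrays lay below the 3 at 0 h for Anln in KO cells and for Cks2 and Ube2c in WT cells, which 8.95% of genes with a value on all these arrays did in KO cells and 7.94% in WT cells. The 95% intervals of the early differences, unadjusted, reached down to -0.86 for Mad2l1 in KO cells and -0.92 for Ube2c in WT cells, so differences of that size lay within the error of these arrays. Over all genes, limma called 0% in early KO cells (793 genes at an unadjusted p under 0.05) and 0.0376% in early WT cells (1202 unadjusted).

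At 0 h all 5 differences between genotypes pointed down in KO cells: -0.34 ± 0.20 for Cks2, -0.20 ± 0.27 for Kif22, -0.31 ± 0.24 for Mad2l1, -0.73 ± 0.21 for Ube2c and -0.35 ± 0.21 for Anln. All KO arrays lay below all WT arrays for Ube2c and Anln, as for 11.9% of all genes. Cks2, Kif22 and Mad2l1 arrays overlapped, and without the second KO array at 0 h the Kif22 difference was 0.02. The Cks2 and Anln differences were -0.04 and -0.09 after quantile normalization, which also brought Ube2c to -0.45, and Anln was -0.10 with the array widths scaled and 0.06 on 1 probe.

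The late change of the KO cells minus that of the WT cells was -0.16 for Cks2 (95% interval -0.71 to 0.40, unadjusted as are those that follow), 0.34 for Kif22 (-0.41 to 1.09), -0.40 for Mad2l1 (-1.08 to 0.27), 0.66 for Ube2c (0.07 to 1.25) and 0.19 for Anln (-0.39 to 0.77). The intervals of Kif22, Mad2l1 and Anln hold differences of either sign, and so does that of Cks2, whose ends are smaller than its late change in either genotype. For the early change the same difference was 0.55 for Cks2, -0.24 for Kif22, -0.07 for Mad2l1, 0.57 for Ube2c and 0.03 for Anln. Over all genes, 0.0941% (10 genes) were called for the late difference (926 at an unadjusted p under 0.05) and 0% for the early one (889 unadjusted), by limma. Both responses use the 0 h arrays of their own genotype as baseline. For Ube2c, whose late interval lies above 0, the KO and WT means were -0.39 and 0.34 at 0 h and 0.14 and 0.22 late. The genotypes thus stood apart at 0 h and close together late. Ube2c was chosen by its values, so its interval is not a test.

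The 4 genes that stood lower late were correlated with each other over the arrays. Their shared late difference, known when they were chosen, is part of these correlations. Over the 10 KO arrays their pairwise correlations were 0.71 to 0.89, and over the 10 WT arrays 0.78 to 0.96, the highest being Cks2 with Anln in WT cells. Ube2c correlated at -0.69 to -0.75 with them in KO cells and at -0.15 to 0.19 in WT cells. With each group's mean removed, the 6 pairs among the 4 genes had r of 0.04 (Mad2l1 with Anln) to 0.68 (Cks2 with Anln), so most of the shared movement was that between groups. Ube2c then had r of 0.42 with Cks2, 0.26 with Kif22, 0.25 with Anln and -0.23 with Mad2l1, so its opposite course in KO cells also lay between groups. The points share arrays and the common pool, and the correlations are a description.

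**Figure D3:**
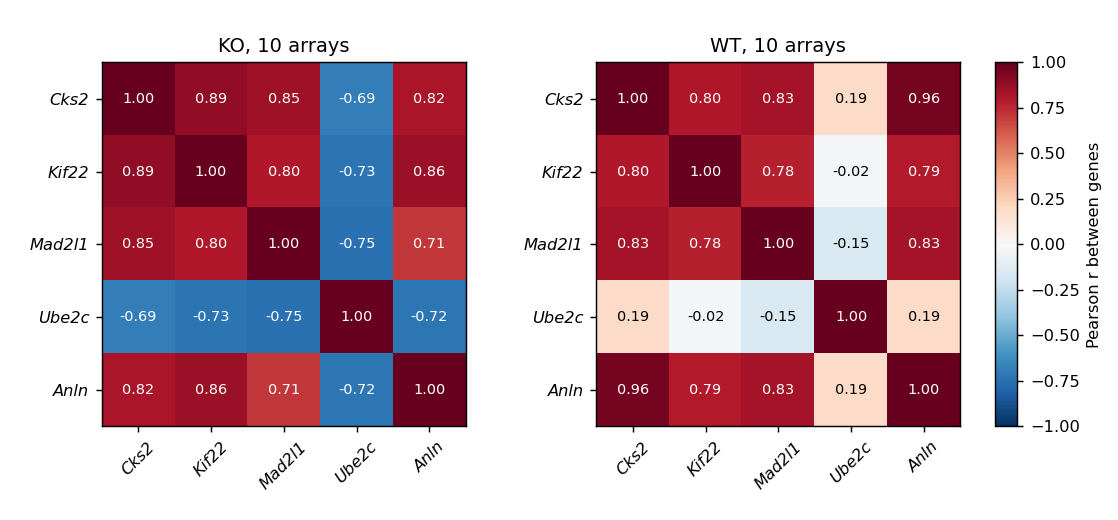
Pearson correlation of each pair of the 5 genes over the 10 KO arrays and over the 10 WT arrays (colour, from -1 to 1). Cks2, Kif22, Mad2l1 and Anln correlate at 0.71 or more in both genotypes, and Ube2c runs opposite to them in KO cells. With each group's mean removed, r among Cks2, Kif22, Mad2l1 and Anln was 0.04 to 0.68, and r of Ube2c with them was -0.23 to 0.42.

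The genes whose values over the 20 arrays were most like the mean of the 5 were Ccng1 (r = 0.94), Ckap4 (0.94), Sec13 (0.93), Rhoj (0.93) and Srsf3 (0.92), among 9454 genes with a median r of 0.01. None of them is in the mitosis lists. Ccng1 encodes cyclin G1, a p53 target, Sec13 a coat protein of vesicles and nuclear pores, and Srsf3 a splicing factor. Ccng1 was lower late than at 0 h by -1.05 in KO cells and by -0.81 in WT cells, which its likeness to the mean of the 5 already holds. The 124 genes of the mitosis lists with a value on every array had a median r of 0.39.

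The rest of the mitotic programme was read from 6 lists that leave the 5 genes out, with 129 of 143 listed genes measured. The lists too were chosen with earlier results of these data known. Late in heat, 21 of the 129 fell and 2 rose in KO cells, where 6.80% of all genes were called lower and 3.86% higher. In WT cells 17 fell and 1 rose, where 3.67% were called lower and 3.60% higher. The median difference of the lists was -0.31 in KO cells and -0.25 in WT cells, against -0.02 over all genes in each. Of the genes called lower, 10 were shared, which is 47.6% of the KO calls and 58.8% of the WT calls; over all genes 177 were shared, 24.5% of the KO calls and 45.4% of the WT calls. Another scaling shifted the balance of all calls: without centring, 463 genes were called lower and 419 higher in late KO cells (723 and 410 with centring), and 222 lower and 336 higher in late WT cells (390 and 382 with centring), and with the array widths scaled 147 lower and 224 higher in late WT cells. The counts rest on single arrays: 8 genes fell in KO cells without the first KO array at 0 h, 13 without the third, 13 without the KO array at 6 h and 13 without that at 8 h, and 6 without both of the last. In WT cells 8 fell without the 6 h array, 9 without the 4 h array, 9 without the 8 h array and 9 without the first WT array at 0 h, and 2 when only the late and 0 h WT arrays entered the fit. With each of the 7 arrays left out in turn, the KO calls of Cdk1, Cks1b, Dlgap5, Kif4, Pttg1, Rad21, Ska2 and Ttk and the WT calls of Cenpk, Cks1b, Fbxo5, Rad21 and Ska2 held every time, and the other calls of the mitosis lists did not.

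**Figure D4:**
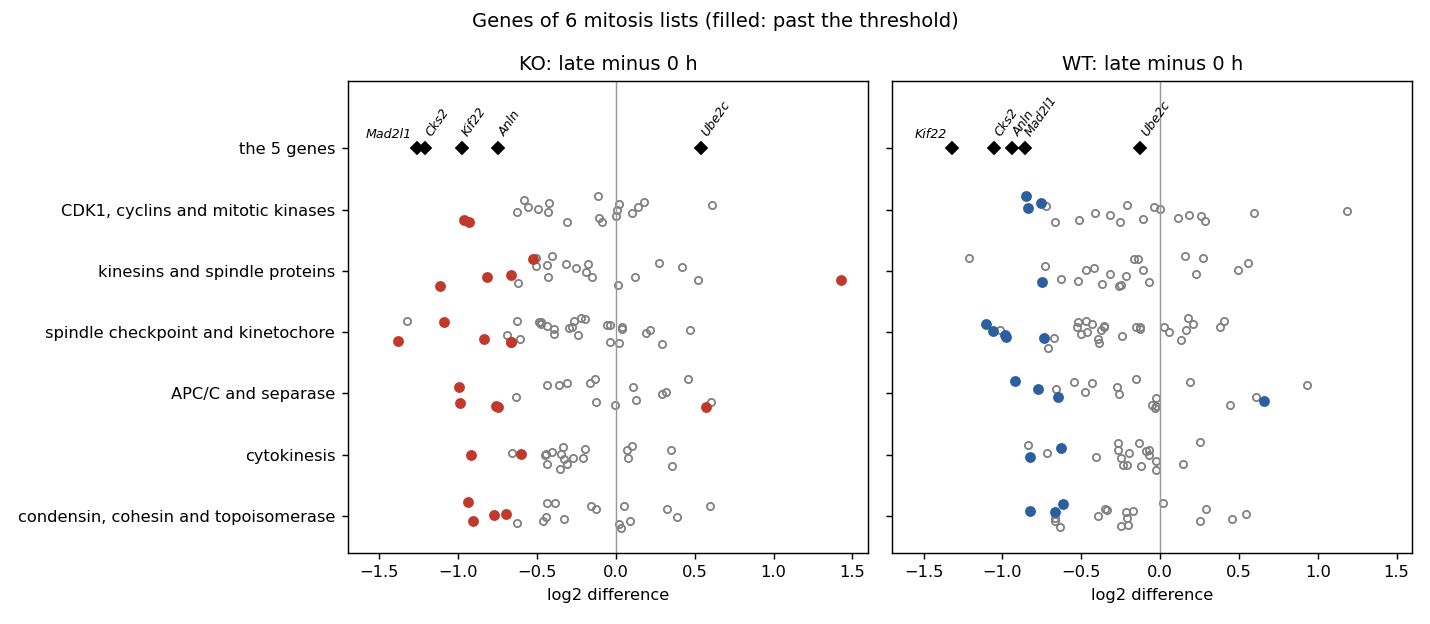
Late minus 0 h difference (log2, horizontal axis) of each measured gene of 6 mitosis lists in KO cells and in WT cells, with the 5 genes as diamonds in the top row; filled points passed the threshold, open points did not. Cks2, Kif22, Mad2l1 and Anln lie between -1.26 and -0.75 in KO cells and between -1.32 and -0.86 in WT cells, with Ube2c to their right.

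Around CDK1, the kinase to which Cks2 binds, 2 of 19 genes fell in KO cells and 3 in WT cells. Of all genes, 6.80% were called lower in KO cells and 3.67% in WT cells, so the KO count was near that share. Cdk1 itself fell by 0.93 ± 0.19 in KO cells (adjusted p = 0.00441, limma) and by 0.84 ± 0.19 in WT cells (adjusted p = 0.0135, limma), and Cks1b did so as given above. Bora, an activator of the kinase Aurora A, fell by 0.85 in WT cells. The Cdk1 call in WT cells was lost without the first WT array at 0 h (adjusted p = 0.0516, limma). The 2 Cdk1 probes gave -0.36 and -1.50 in KO cells and -0.56 and -1.11 in WT cells.

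Among kinesins and spindle proteins, the class of Kif22, 4 of 21 fell and 1 rose in KO cells, and 1 fell in WT cells. Of all genes, 6.80% were called lower and 3.86% higher in KO cells, and 3.67% lower in WT cells. The single calls were near those shares. Kif4, also a chromosome-binding kinesin, fell by 1.12 and Kif20a, a kinesin of the central spindle, by 0.82 in KO cells, and Kif20a fell by 0.75 in WT cells. Kif23 and Nusap1 were also called lower in KO cells. Dlgap5 (HURP), which stabilises spindle microtubules, rose by 1.43 ± 0.24 in KO cells (adjusted p = 0.00119, limma), opposite to the other KO calls of this list. The call rested on 1 probe and was kept with each of 7 arrays left out in turn. In late WT cells the Dlgap5 difference was 0.55 and was not called (adjusted p = 0.161, limma).

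In the spindle checkpoint and kinetochore list, the class of Mad2l1, 5 of 31 fell in KO cells and 5 in WT cells. Of all genes, 6.80% were called lower in KO cells and 3.67% in WT cells. Ska2, a subunit that ties kinetochores to microtubules, fell by 1.38 ± 0.19 in KO cells (adjusted p = 0.000599, limma) and by 1.06 ± 0.19 in WT cells (adjusted p = 0.0052, limma). Ttk (MPS1), the kinase that starts the checkpoint signal, fell by 1.09 in KO cells and by 0.98 in WT cells, the WT call being lost without the first WT array at 0 h. Nuf2, Zwint and Birc5 fell in KO cells, and Cenpk, Knl1 and Cdca8 in WT cells. Cenpk was also lower in KO than in WT cells at 0 h, by -1.04.

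The APC/C list, to which Ube2c relates, had 4 of 19 genes lower and 1 higher in KO cells, and 3 lower and 1 higher in WT cells. Of all genes, 6.80% were called lower and 3.86% higher in KO cells, and 3.67% lower and 3.60% higher in WT cells. The single higher calls were near those shares. Pttg1 (securin), the inhibitor that the APC/C destroys to free separase, fell by 1.00 in KO cells and by 0.65 in WT cells, where 1 of its 4 probes gave 0.21. Espl1, which encodes separase, rose by 0.57 in KO cells and by 0.66 in WT cells as the mean of 3 probes that disagreed, at 0.38, 1.91 and -0.57 in KO cells and 0.67, 1.36 and -0.04 in WT cells. Its call held in 2 of 7 fits with one array left out in KO cells and 3 of 7 in WT cells. The APC/C subunits Anapc2, Anapc5 and Anapc7 fell in KO cells and Anapc5 in WT cells, each with a call that held in 1 to 3 of 7 fits with one array left out. Fbxo5 (EMI1), an APC/C inhibitor, fell by 0.92 in WT cells, and it was the one gene of the mitosis lists whose late response differed between genotypes past the threshold, by 1.24 (adjusted p = 0.0438, limma), a call lost in each of 14 fits with one array left out.

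Of 20 cytokinesis genes, the class of Anln, 2 fell in each genotype (all genes: 6.80% in KO cells and 3.67% in WT cells). The KO count was near that share. Both were septins, filament proteins that anillin binds: Septin9 fell by 0.92 in KO cells and by 0.83 in WT cells, and Septin2 by 0.60 in KO cells and by 0.63 in WT cells. With one array left out, the Septin9 call held in 5 of 7 fits in KO cells and 1 of 7 in WT cells. The Septin2 call held in 4 of 7 and 3 of 7. Among 19 condensin, cohesin and topoisomerase genes, 4 fell in KO cells and 3 in WT cells, beside the same shares of all genes. Rad21, the cohesin subunit that separase cuts, fell in both genotypes, by 0.94 in KO cells and by 0.82 in WT cells. Smc1a, Ncapd2 and Ncaph made up the other calls in KO cells, and Smc2 and Smc4 those in WT cells, with 1 of 4 Smc2 probes at 0.04.

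DNA replication genes, read as the neighbouring phase of the cycle, gave 4 lower of 18 in KO cells, where 6.80% of all genes were called lower, and 1 in WT cells, where 3.67% were. Rrm1, the large subunit of ribonucleotide reductase, fell by 2.19 ± 0.23, Tk1, thymidine kinase, by 1.65, and Fen1 was also called, in KO cells, though not without the first KO array at 0 h (adjusted p = 0.0747, limma). The 2 Rrm1 probes differed in size in late KO cells, at -1.25 and -3.13. Gmnn (geminin), which blocks re-replication and is an APC/C substrate, fell by 0.99 in KO cells and by 1.01 in WT cells. Of 16 CDK inhibitors and G1 cyclins, a single one was called in each direction in KO cells, a share near that of all genes, and 1 higher in WT cells. Cdkn2c fell by 0.71 in KO cells, with 1 of 4 probes at 0.04, and Rb1, the retinoblastoma repressor of cell cycle genes, rose by 0.77 in KO cells and by 1.06 in WT cells, the KO call holding in 4 of 7 fits with one array left out and the WT call in 7 of 7.

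In the first 2 h none of the 129 mitosis genes was called in either genotype, by limma, with 9 at an unadjusted p under 0.05 in KO cells and 16 in WT cells, where 0% of all genes were called in KO cells and 0.0376% in WT cells. At 0 h 1 of the 129 was called higher in KO than in WT cells and 2 lower. These were smaller shares than the 3.04% higher and 3.60% lower of all genes. Kif14, a cytokinesis kinesin, was higher by 0.93, and Cks1b and Cenpk were lower. In the list of CDK inhibitors and G1 cyclins, the inhibitors Cdkn1b and Cdkn1c were higher in KO cells at 0 h, by 0.75 and 0.52, and the cyclin Ccnd2 was lower, by -0.94 ± 0.13 (adjusted p = 0.000243, limma). The Ccnd2 call held in 6 of 6 fits with one array left out, that of Cdkn1b in 2 and that of Cdkn1c in 0. Hsp90aa1, a cytosolic HSP90 chaperone, was lower in KO cells at 0 h by -0.72, a call that held in 1 of 6. Calls at 0 h numbered 323 higher and 382 lower over all genes, but 408 and 286 without centring, 376 and 232 after quantile normalization and 295 and 225 with the array widths scaled. The Kif14 call held in 2 of 6 fits with one array left out, and those of Cks1b and Cenpk in 6 of 6.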

How the data were processed

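Gene expression was measured on 20 two-colour arrays. The deposited values are treated as log2 ratios of sample (Cy5) to pool (Cy3), per the labels; their base is not stated, and base 10 was excluded because values reach 10.2, above the 4.82 that 16-bit signals allow a log10 ratio. Background correction, spot filters and normalization are not given in the sources used here, and signal over background was not examined.

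From these, each array was centred on its median, and a probe needed 2 values in each of the 6 groups (20881 probes that list 1 gene, of 42624; 1124 list several and 19799 none). Symbols come from the platform table; 21650 probes had a gene found in RefSeq, which changed 0 symbols. A gene is the mean of its probes. One limma (3.58.1, R 4.3.3) model was fitted to all 20 arrays, with 7 contrasts, two-sided p-values adjusted by Benjamini-Hochberg over 10625 genes, and a threshold of 0.05. Errors of differences are the moderated SE. The fit was tested on simulated data.

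The genes, the lists and the alternatives were chosen with earlier results of these data known. Named beside the 5 genes are, per list, up to 3 genes of smallest p among the late calls, and all where a count given is 5 or fewer, Cks1b, the 5 genes most like the mean of the 5, and the heat shock checks. Same-numbered 0 h arrays did not deviate together (r of -0.01 to 0.01), so the numbers do not pair the arrays. Alternatives were other normalizations, 1 probe per gene, complete probes, other windows, fewer arrays, a replicate block and each array left out.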

Additional observations from a re-analysis of the deposited data

Results flagged for a closer look

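On the late KO arrays, Cks2 was lowest at 6 h, at -1.15, and that array stood apart from the other 3 by more than the critical gap of Dixon's test. On the late WT arrays, Ube2c was lowest at 4 h, at -0.39, and likewise stood apart. Chance alone flags some groups at this 95% level, and the cause was not tested in either case.

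The late response differed between KO and WT cells, by the test of the difference itself in limma over all genes, for 5 genes of the lists. Fbxo5, the APC/C inhibitor, had a KO minus WT response of 1.24 (adjusted p = 0.0438). Relative to the 0 h mean, it stood at 0.12 to 0.53 on the 4 late KO arrays and at -1.04 to -0.84 on the 4 late WT arrays, and its 2 probes gave 0.45 and 0.18 in KO cells and -0.99 and -0.88 in WT cells. The call was lost in all 14 fits that left out one array (adjusted p of 0.0517 to 0.117). Rrm1 had a difference of -1.75 (adjusted p = 0.0498), which was lost in 13 of 14 such fits. The heat shock genes differed by -5.84 for Hspa1a, -5.80 for Hspa1b and -2.11 for Dnajb1, calls that were lost in 14, 13 and 12 of 14 such fits; the first pair are near-identical and can bind each other's probes.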

How the results depend on the processing

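Cks2, Kif22, Mad2l1 and Anln kept a late difference below 0 in both genotypes under every alternative run, each array left out included. What moved is given next; the cause was not tested. Without centring, the median of all genes stood at 0.16 for KO minus WT at 0 h (0.05 centred), 0.19 for early WT and -0.31 for the early response difference (-0.05 centred). Early Kif22 in WT cells was then 0.17 and the early Anln response difference -0.24; 463 genes were lower in late KO cells and 222 in late WT cells, 10 of them in the mitosis lists, 1 gene was called in early WT cells and 0 in the late response. With quantile normalization, KO minus WT at 0 h was -0.04 for Cks2, -0.45 for Ube2c and -0.09 for Anln, early Kif22 in WT cells 0.00 and the early Anln response difference -0.13; 232 genes were lower at 0 h, 2 were called in early WT cells, 202 were lower in late WT cells (8 in the mitosis lists), and 4 mitosis genes were higher in late KO cells. With array widths scaled, Anln was -0.10 at 0 h, -0.72 in late WT cells and -0.16 in the early response difference, and Ube2c 0.91 in late KO cells; 225 genes were lower at 0 h, 0 called in early WT cells, 625 higher in late KO cells (4 in the mitosis lists), and 147 lower (5) and 224 higher (0) in late WT cells. With 1 probe per gene, Anln was 0.06 at 0 h, 0.05 in early WT cells, -0.72 in late WT cells, and -0.78 (early) and -0.19 (late) in the response differences; Ube2c was 0.13 in late KO cells, -0.17 in early KO cells and -0.43 in late WT cells; early WT values were 0.03 for Kif22 and 0.09 for Mad2l1; mitosis genes called higher were 6 in late KO cells and 4 in late WT cells, and 2 genes were called in early WT cells and 1 in the late response. With probes complete on every array, 2 genes were called in early WT cells and 1 in the early response, and mitosis genes called higher were 4 in late KO cells and 2 in late WT cells. With a fit to the arrays of the compared groups alone, 55 genes were lower and 54 higher at 0 h, 0 called in early WT cells, 42 lower (2 in the mitosis lists) and 122 higher (0) in late WT cells, and 1 mitosis gene higher in late KO cells. Without the 3 h arrays, 0 genes were called in early WT cells and in the late response. Without the 0.5 h arrays, 6 were called in early KO cells, 9 in early WT cells and 4 in the early response, where Kif22 was 0.07 and Anln -0.04. Without the KO arrays of 6 and 8 h, 119 genes were lower (6 in the mitosis lists) and 97 higher (1) in late KO cells, and 0 were called in the late response. The 0 h numbers or times did not pair the arrays; with them as a replicate block, 244 genes were lower and 207 higher at 0 h, and 0 were called in the late response.

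With each array left out in turn, genes lower in late KO cells numbered 256 to 668 (mitosis lists 8 to 21) and genes higher 262 to 433 (1 to 3). In late WT cells 194 to 477 were lower (8 to 18) and 184 to 345 higher (0 to 1). At 0 h 192 to 360 were lower and 202 to 380 higher. Calls numbered 0 to 6 in early KO cells, 0 to 37 in early WT cells, 0 to 10 in the early response and 0 to 16 in the late response. Early response differences ran from -0.30 to 0.23 for Mad2l1, -0.14 to 0.22 for Anln and -0.47 to 0.12 for Kif22, early Kif22 in WT cells from -0.37 to 0.22, and the late response difference of Cks2 from -0.26 to 0.03. Precision is limited by 3 or 4 arrays a group; signal over background was not examined.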
